A study of Mus musculus with 4 samples.

Results

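The cell cycle genes described here are 34 of the 32285 genes in the deposited matrices, listed by name, by known function, with earlier results of these data known: 24 genes of mitosis, and 10 genes of DNA replication. They were followed in mouse brain slices after photothrombotic (PT) injury, in which light-activated dye clots the vessels of a patch of cortex. The slices lay on 4 Visium capture areas, glass squares whose printed spots each capture poly(A) RNA from a small region of tissue that can hold several cells of different types. Wild-type (WT) mice gave 1 slice at rest, 1 at 2 days post-injury (dpi), 2 at 7 dpi and 2 at 21 dpi, and a further 2 slices at 21 dpi came from Cthrc1(creER); R26(DTA) mice, called deleter mice. Each slice was a different mouse. In deleter mice a tamoxifen-activated Cre under Cthrc1, a gene of matrix-forming fibroblasts, is meant to switch on a toxin in the cells that express it. Deletion was not detectable in these mice and the study set them aside, so they stand here as a further group at the late time. Age and sex are not in the labels. Xist was present at 1013 to 1597 UMIs at rest, at 2 dpi, in both 7 dpi slices and in deleter slice 1, while the Y-linked Ddx3y reached 805 to 1323 UMIs in both WT slices at 21 dpi and in deleter slice 2, so the sex of the mice differed with time as well.

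A dividing cell copies its DNA in S phase and separates the copies in M phase, and much of the machinery for each step is transcribed only in cells that are cycling. The replication genes here encode the helicase that opens DNA (Mcm2 to Mcm7), the sliding clamp that holds the polymerase (Pcna) and enzymes that supply nucleotides (Rrm1, Rrm2 and Tyms). The mitotic genes encode the kinase and cyclins that start division (Cdk1, Ccna2, Ccnb1, Ccnb2), kinetochore and checkpoint proteins (Cenpa, Cenpe, Cenpf, Bub1, Bub1b), kinases (Aurka, Aurkb, Plk1), spindle and midzone proteins (Tpx2, Kif11, Kif20a, Kif23, Nusap1, Prc1, Birc5), the ubiquitin ligase partners that end mitosis (Ube2c, Cdc20) and chromosome proteins (Mki67, Top2a, Hmgb2). In the uninjured adult cortex few cells divide, and injury is known to set microglia, infiltrating macrophages, astrocytes, vascular cells and fibroblasts cycling.

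Promoters of mitotic genes are known for a cell cycle genes homology region (CHR, read here as TTTGAA) near CCAAT boxes, and those of replication genes for E2F sites (read here as TTTCCCGC, TTTCGCGC, TTTGCCGC or TTTGGCGC). RefSeq windows on GRCm38.p6, from 250 bases before to 50 bases after a transcript start, were found for 29 of the 34 genes and were searched on both strands. TTTGAA was present for 15 of the 20 mitotic genes with a window and for 1 of 9 replication genes, Mcm2, beside 20.2% of all 27025 genes. CCAAT was present for 18 of 20 and 8 of 9 genes, beside 41.1% of all genes, and both motifs together for 15 of 20 and 1 of 9, beside 7.97%. An E2F form was present for 1 mitotic gene, Cdk1, and for 4 replication genes, Mcm3, Mcm5, Mcm6 and Mcm7, beside 2.61% of all genes. The 250 bases before the start are given for 3 mitotic genes whose levels are followed below, for Mcm6, which passed the test between 7 and 21 dpi in both lesion regions, and for Pcna, which holds more replication UMIs than any other member. Each is written 5′ to 3′ along the gene, with the motif matches of either strand in capitals. They lie on the minus strand at chr7:135716380-135716629 (Mki67), chr10:69352913-69353162 (Cdk1), chr11:99024190-99024439 (Top2a), chr1:128359706-128359955 (Mcm6) and chr2:132253181-132253430 (Pcna).
Mki67: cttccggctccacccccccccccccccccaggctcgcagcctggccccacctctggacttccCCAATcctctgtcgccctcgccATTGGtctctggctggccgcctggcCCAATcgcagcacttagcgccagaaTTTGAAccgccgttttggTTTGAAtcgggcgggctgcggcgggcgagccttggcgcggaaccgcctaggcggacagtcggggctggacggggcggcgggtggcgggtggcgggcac
Cdk1: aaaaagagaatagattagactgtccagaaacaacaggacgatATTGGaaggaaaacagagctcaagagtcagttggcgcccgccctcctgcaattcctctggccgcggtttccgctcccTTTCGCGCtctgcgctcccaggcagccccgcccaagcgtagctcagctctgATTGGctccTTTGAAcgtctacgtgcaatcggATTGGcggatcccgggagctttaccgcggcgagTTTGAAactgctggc
Top2a: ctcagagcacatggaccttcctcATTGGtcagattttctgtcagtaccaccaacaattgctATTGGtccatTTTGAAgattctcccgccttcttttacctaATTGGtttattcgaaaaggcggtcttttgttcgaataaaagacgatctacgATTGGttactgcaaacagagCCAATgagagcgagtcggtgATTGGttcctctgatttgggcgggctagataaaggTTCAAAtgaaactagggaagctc
Mcm6: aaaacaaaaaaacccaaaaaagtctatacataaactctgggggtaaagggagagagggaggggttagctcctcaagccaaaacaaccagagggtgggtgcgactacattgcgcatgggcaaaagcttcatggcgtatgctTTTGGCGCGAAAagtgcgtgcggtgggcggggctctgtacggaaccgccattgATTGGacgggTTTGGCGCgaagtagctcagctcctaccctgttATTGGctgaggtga
Pcna: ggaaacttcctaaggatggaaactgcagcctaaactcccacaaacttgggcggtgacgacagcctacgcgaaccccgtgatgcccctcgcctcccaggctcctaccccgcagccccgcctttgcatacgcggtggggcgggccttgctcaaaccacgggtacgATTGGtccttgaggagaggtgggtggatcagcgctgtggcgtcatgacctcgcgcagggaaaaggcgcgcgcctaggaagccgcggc
The Mki67 window holds 3 CCAAT boxes before 2 CHR matches, and those of Cdk1 and Top2a also hold both, with an E2F match in Cdk1. The Mcm6 window holds 3 E2F matches, of which 2 overlap on opposite strands, and no TTTGAA. Pcna has a single CCAAT box and neither of the other motifs in these letters. A match is a string of letters and not a measured binding site.

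Slices held 827 to 1726 spots over tissue and 11332780 to 23677298 UMIs, with a median of 12447 to 16158 UMIs per spot except at 2 dpi, where it was 2633.5 and 21.7% of spots had fewer than 1000. Spots with at least 5 Col1a1 UMIs per 10000 UMIs are called fibrotic, spots 1 to 3 hexagonal steps from them the ring, and all other spots elsewhere. Fibrotic spots numbered 112 and 392 in the 7 dpi slices, 170 and 203 in the WT slices at 21 dpi and 193 and 274 in deleter mice, but 3 at rest and 26 at 2 dpi. The 5 fibroblast genes checked, Col1a1 among them, summed to 51.6 to 143 UMIs per 10000 in fibrotic spots from 7 dpi on and to 1.21 to 1.97 elsewhere. Because Col1a1 also sets the regions, part of this gap follows from the rule, and the sum is no independent check of them. At 2 dpi many of the 26 fibrotic spots rest on few UMIs (median 1309 per spot). Which of the first pair of slices is at rest follows the tissue outlines in the study, since the labels do not say. The WT slices of 7 dpi lay on 1 capture area, those of 21 dpi on another and the deleter slices on yet another, so capture area cannot be told apart from time among WT slices or from genotype at 21 dpi, outside the comparisons made within slices. Likewise, fewer cycling cells cannot be told from less RNA per cycling cell.

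All 34 genes had UMIs. Over the 8 slices the mitotic genes summed to 27255 UMIs, from 282 for Bub1 to 7525 for Hmgb2, and the replication genes to 24061, from 929 for Tyms to 10532 for Pcna. Hmgb2, a chromatin protein that is also made outside division, gave 27.6% of the mitotic UMIs, and Pcna, which also serves DNA repair, 43.8% of the replication UMIs. Sums without Hmgb2 or Pcna are therefore also given for some of the comparisons below.

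Over the whole slice the mitotic genes went from very low at rest to their highest level at 2 dpi. They stayed high in and around fibrotic tissue at 7 dpi and were low again at 21 dpi. Summed over the whole slice they stood at 0.544 UMIs per 10000 at rest and 6.47 at 2 dpi. The whole-slice mean was 4.06 ± 0.96 (SD, n = 2) at 7 dpi and 1.13 ± 0.04 at 21 dpi. In fibrotic spots the 2 slices at 7 dpi had 7.97 and 7.34, those at 21 dpi 1.53 and 2.26, and the deleter slices 1.53 and 1.24. Both slices at 7 dpi lay above all 4 at 21 dpi. In the ring the values were 7.54 and 5.80 at 7 dpi, 1.29 and 1.51 at 21 dpi, and 1.36 and 0.834 in deleter mice. Elsewhere they were 2.03 and 1.84 at 7 dpi, 0.924 and 0.381 at 21 dpi, and 0.591 and 0.645 in deleter mice. The level in fibrotic spots at 21 dpi was thus near that of all spots elsewhere at 7 dpi. Tissue elsewhere was not even at 7 dpi, and beyond 10 steps the 2 slices stood at 1.78 and 0.400.

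**Figure D1:**
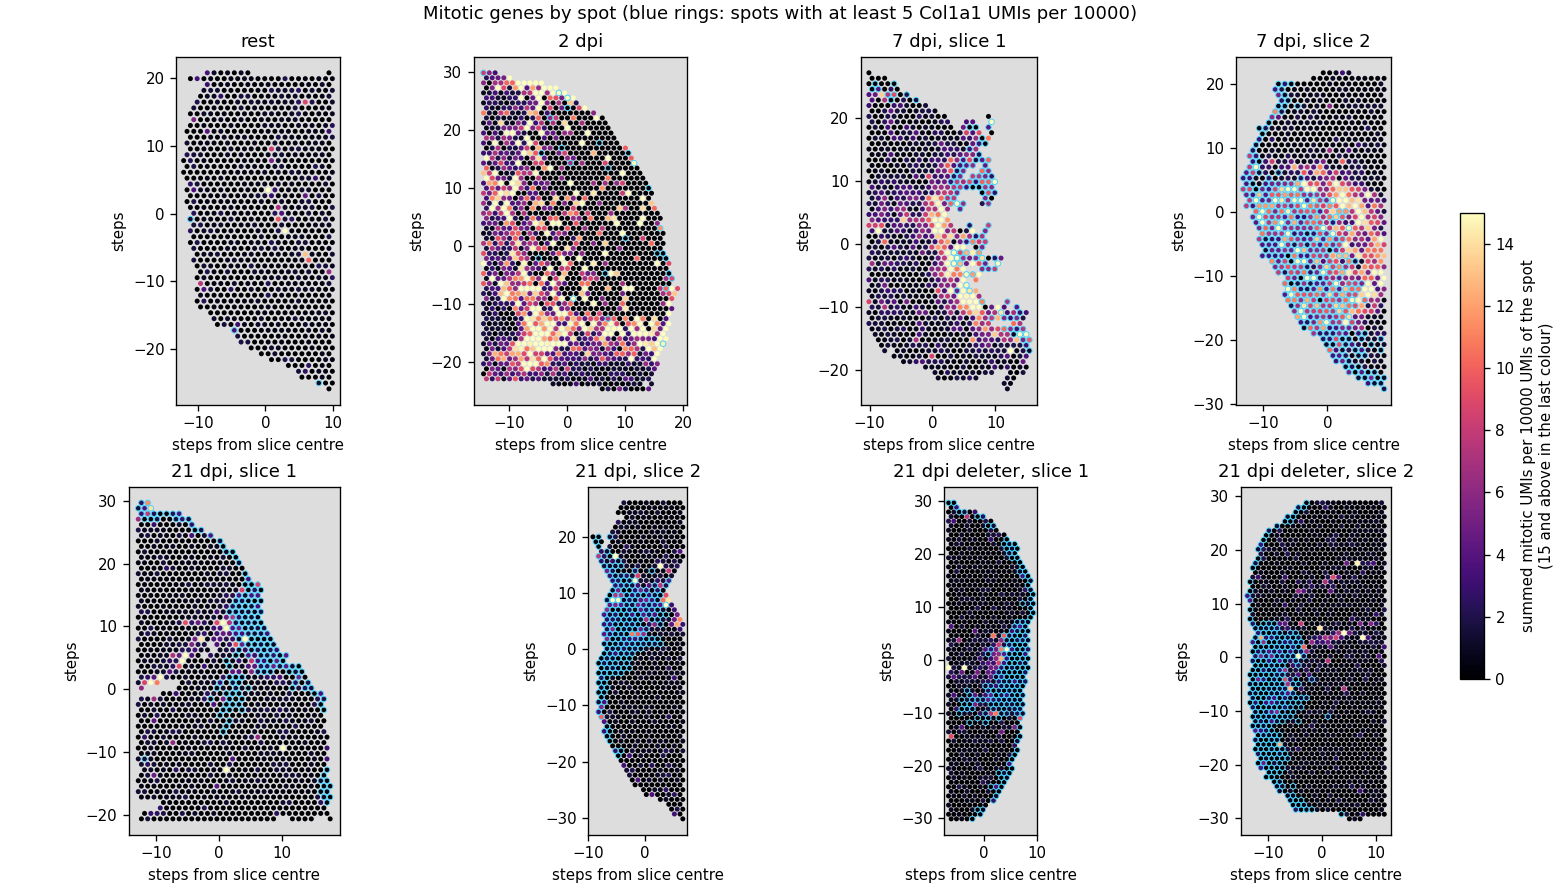
Spots of each slice in hexagonal steps from the slice centre, coloured by summed mitotic UMIs per 10000 UMIs of the spot (levels of 15 and above share the last colour), with fibrotic spots ringed in blue. Bright spots fill a broad band at 2 dpi, follow the lesion at 7 dpi and are few at rest and at 21 dpi.

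The replication genes moved the same way over a narrower range. Their sum was 1.18 UMIs per 10000 at rest and 3.61 at 2 dpi over the whole slice. In fibrotic spots it was 4.63 and 3.73 at 7 dpi, 2.15 and 2.16 at 21 dpi and 2.09 and 1.87 in deleter mice. In the ring it was 4.50 and 3.42 at 7 dpi against 1.49 and 1.89 at 21 dpi. Replication UMIs outnumbered mitotic UMIs by 2.16 to 1 at rest, fell short of them at 2 dpi (0.558 to 1) and at 7 dpi (0.768 and 0.610), and outnumbered them again at 21 dpi (1.40 and 1.41). This depended on Pcna. Without it the whole-slice replication sum was below the mitotic sum at rest (0.454 against 0.544) and at 21 dpi (mean 0.830 against 1.13). With Hmgb2 also left out of the mitotic sum, replication was above it at rest (0.454 against 0.295) and at 21 dpi (0.830 against 0.766).

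**Figure D2:**
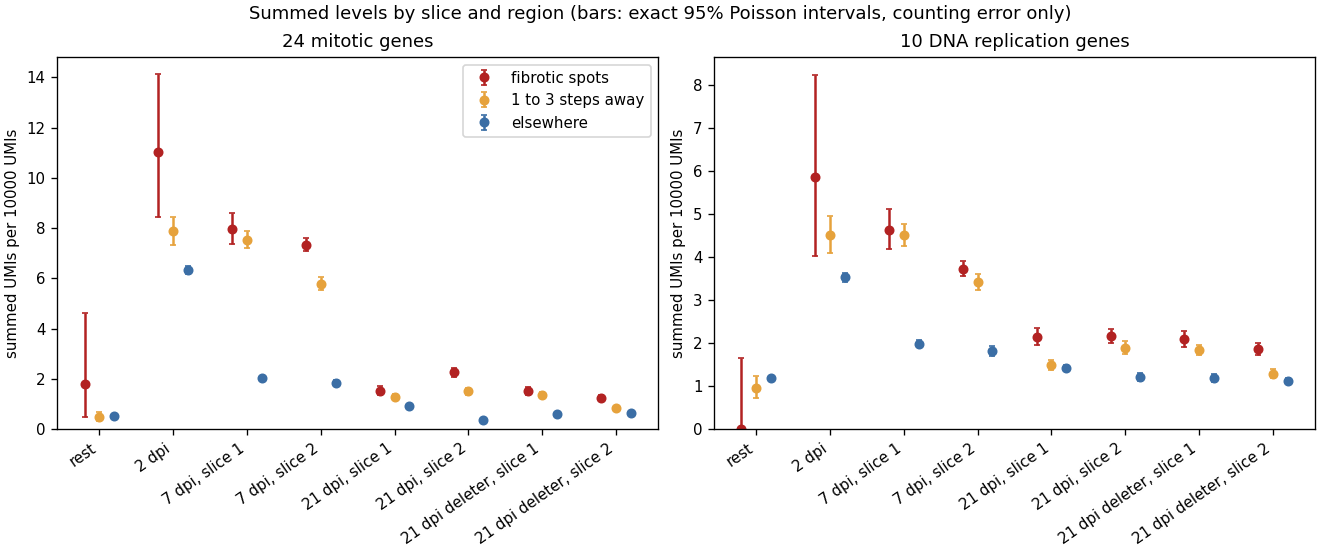
Summed mitotic (left) and replication (right) UMIs per 10000 UMIs in fibrotic spots, the ring and elsewhere, for each of the 8 slices, with exact 95% Poisson intervals that cover counting error only. Lesion levels at 7 dpi stand above every slice at 21 dpi in both panels, and elsewhere spots stand highest at 2 dpi. With only 26 fibrotic spots at 2 dpi, elsewhere there takes in part of the RNA-poor infarct and 90.3% of the mitotic UMIs. It is thus not like tissue to elsewhere at 7 and 21 dpi.

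At 2 dpi all 34 genes were above their level at rest. With 1 slice each there is no test, and the exact 95% intervals given for ratios cover counting error only. The mitotic sum was 11.9-fold the level at rest (11.1 to 12.8), or 15.2-fold without Hmgb2, and the replication sum 3.07-fold (2.91 to 3.24), or 4.90-fold without Pcna. At least 2-fold more was reached by 33 of the 34 genes, beside 15.1% of the 15197 genes with at least 20 UMIs in both slices together. Pcna, at 1.92-fold, was the exception. Mki67, the proliferation antigen of dividing nuclei, went from 27 UMIs at rest to 574 at 2 dpi, or 26.6-fold per 10000 UMIs. Top2a, which untangles chromosomes, went from 24 to 607 UMIs, or 31.6-fold. Cdk1, the kinase that starts mitosis, had 9 UMIs at rest and 343 at 2 dpi, 47.6-fold. Bub1, the checkpoint kinase, had 2 UMIs at rest and 104 at 2 dpi, so its 65.0-fold ratio has an interval of 17.5 to 544. Hmgb2, already at 406 UMIs at rest, reached 2588, a 7.96-fold ratio (7.17 to 8.86). Among replication genes Rrm2, the regulated subunit of ribonucleotide reductase, reached 16-fold and Tyms, which makes thymidylate, 12.2-fold, while Mcm4 reached 2.70-fold, Mcm7 3.23-fold and Rrm1, the constant subunit, 3.56-fold.

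The 2 dpi signal formed a band around the RNA-poor infarct and reached into the rest of the slice. An RNA-poor core of 993 spots was drawn from depth alone, as spots whose neighbourhood has a median under 5000 UMIs, a division made after the data were seen. Mitotic genes stood at 3.36 UMIs per 10000 (2.93 to 3.85) more than 6 steps inside the core, 5.40 at 4 to 6 steps and 10.2 (9.42 to 11.1) in its outermost 3 steps. Outside it they stood at 9.21 within 3 steps, 6.58 at 4 to 6 steps, 4.68 at 7 to 10 and 4.82 beyond. The level was thus highest on both sides of the border, and even its lowest point outside was above 0.544, the level at rest. Replication genes followed the same order within the core, from 2.61 to 5.25, and were at 4.99 just outside and 2.54 at 7 to 10 steps. The 6 macrophage and microglia markers were also highest in the outermost core (26.6 UMIs per 10000) and were at 7.36 in its depth and at 8.18 to 14.1 outside, while median depth went from 997 UMIs per spot in the depth of the core to 18128 outside; the part of either in the band was not tested.

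**Figure D3:**
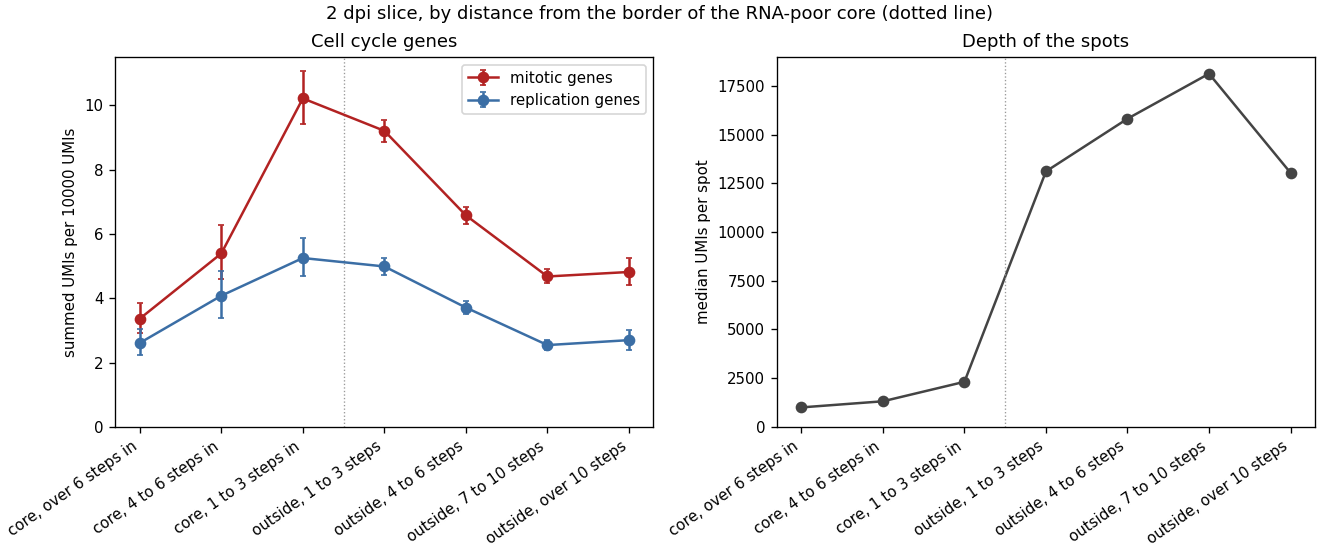
Summed mitotic and replication UMIs per 10000 (left, exact 95% Poisson intervals, counting error only) and median UMIs per spot (right) in the 2 dpi slice, by hexagonal steps inside or outside the border of the RNA-poor core. Mitotic genes reach 10.2 just inside the border and 9.21 just outside it.

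Between 7 and 21 dpi the question was whether cycling in the fibrotic lesion was a passing phase. In fibrotic spots 27 of the 34 genes were higher at 7 dpi (edgeR quasi-likelihood test, 2 slices against 2, adjusted p under 0.05 over 12912 genes), where 1.6% of all genes tested were called higher, and none was lower. By role these were 23 of 24 mitotic genes, all but Kif11, and 4 of 10 replication genes, Rrm2, Tyms, Mcm6 and Rrm1. The median log2 fold change was 2.33 for mitotic genes, 1.11 for replication genes and -0.000161 for all genes tested. Here and in the ring, the filter on low counts asked for enough UMIs in 2 slices. Genes could thus enter through their 7 dpi slices alone. Between deleter and WT slices at 21 dpi only 22 of the 34 passed it. Those left out were Aurka, Aurkb, Bub1, Bub1b, Ccnb1, Ccnb2, Cdc20, Kif20a, Kif23, Nusap1, Plk1 and Prc1. All of these are mitotic genes and all are among the 27 called in fibrotic spots, so part of that count rests on genes near the floor at 21 dpi. Cdc20 had 1 and 11 UMIs in the WT slices at 21 dpi. With no filter 32 genes were called in fibrotic spots and 33 in the ring. In 33 genes both slices at 7 dpi lay above both at 21 dpi, as they did in 24.5% of all genes. Mcm4 overlapped. The count was smaller without either 7 dpi slice: 14 genes were called without slice 1 and 11 without slice 2.

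Of the chromosome proteins, Mki67 stood at 0.732 and 0.624 UMIs per 10000 in fibrotic spots at 7 dpi and at 0.0715 and 0.179 at 21 dpi. Its log2 fold change was 2.35 ± 0.32 (standard error, SE, adjusted p = 0.00361). Top2a stood at 0.638 and 0.610 at 7 dpi and at 0.0760 and 0.179 at 21 dpi. Both genes were well apart between times, and at 21 dpi slice 2 was the higher for each. Hmgb2 was at 1.25 and 1.31 at 7 dpi and at 0.608 and 0.725 at 21 dpi, a log2 fold change of 0.94 ± 0.17 (adjusted p = 0.0149). It was the smallest change among the mitotic genes called.

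Of the kinetochore genes, Cenpa, the histone that marks centromeres, stood at 0.472 and 0.444 UMIs per 10000 at 7 dpi and at 0.134 and 0.189 at 21 dpi (log2 fold change 1.46 ± 0.24, adjusted p = 0.00799). Cenpf, which binds kinetochores late in the cycle, was at 0.449 and 0.216 at 7 dpi and at 0.0492 and 0.0806 at 21 dpi. Its 7 dpi slices differed by more than those of the other named genes, and it still passed (2.13 ± 0.42, adjusted p = 0.0214). Birc5 (survivin), part of the complex that corrects chromosome attachment, was at 0.614 and 0.444 at 7 dpi and at 0.0492 and 0.0981 at 21 dpi, a log2 fold change of 2.72 ± 0.32.

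Cdk1 was at 0.413 and 0.369 UMIs per 10000 at 7 dpi and at 0.0671 and 0.0736 at 21 dpi, and was close between slices at each time (2.43 ± 0.26, adjusted p = 0.00156). Ube2c, which hands ubiquitin to the complex that ends mitosis, was at 0.319 and 0.421 at 7 dpi and at 0.0536 and 0.0981 at 21 dpi (2.30 ± 0.30). The largest change among the 34 genes was that of Tpx2, a spindle assembly factor, at 0.272 and 0.307 at 7 dpi and 0.0447 and 0.0280 at 21 dpi (3.03 ± 0.33, adjusted p = 0.00156). The 21 dpi values of Tpx2 rest on 10 and 8 UMIs. The cyclins Ccna2, Ccnb1 and Ccnb2 changed by 2.17, 2.59 and 2.43 on the log2 scale, and the kinases Aurka, Aurkb and Plk1 by 2.64, 2.13 and 2.24. These folds also rest on few UMIs at 21 dpi. The cyclins had 12 and 24 (Ccna2), 2 and 19 (Ccnb1) and 10 and 8 (Ccnb2). The kinases had 5 and 3 (Aurka), 5 and 9 (Aurkb) and 4 and 8 (Plk1). Kif11, the motor that separates spindle poles, did not pass (1.74 ± 0.45, adjusted p = 0.0688).

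Replication genes differed among themselves, also within the helicase. The clamp Pcna was at 1.38 and 1.16 UMIs per 10000 in fibrotic spots at 7 dpi and at 1.02 and 0.992 at 21 dpi, and did not pass (log2 fold change 0.32 ± 0.17, adjusted p = 0.417). Among helicase subunits, Mcm6 was at 0.579 and 0.544 at 7 dpi and at 0.174 and 0.154 at 21 dpi and passed (1.76 ± 0.21, adjusted p = 0.00195). Mcm7 was at 0.283 and 0.280 against 0.139 and 0.147, a gap that is clear in all 4 slices but did not pass (0.96 ± 0.24, adjusted p = 0.0585). Mcm4 was at 0.165 and 0.166 at 7 dpi and at 0.192 and 0.119 at 21 dpi and overlapped (0.10 ± 0.31). Of the nucleotide enzymes Rrm1 was at 0.614 and 0.494 at 7 dpi and at 0.219 and 0.263 at 21 dpi (1.14 ± 0.22, adjusted p = 0.0178), and Rrm2 and Tyms changed by 2.55 and 1.98 on the log2 scale.

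**Figure D4:**
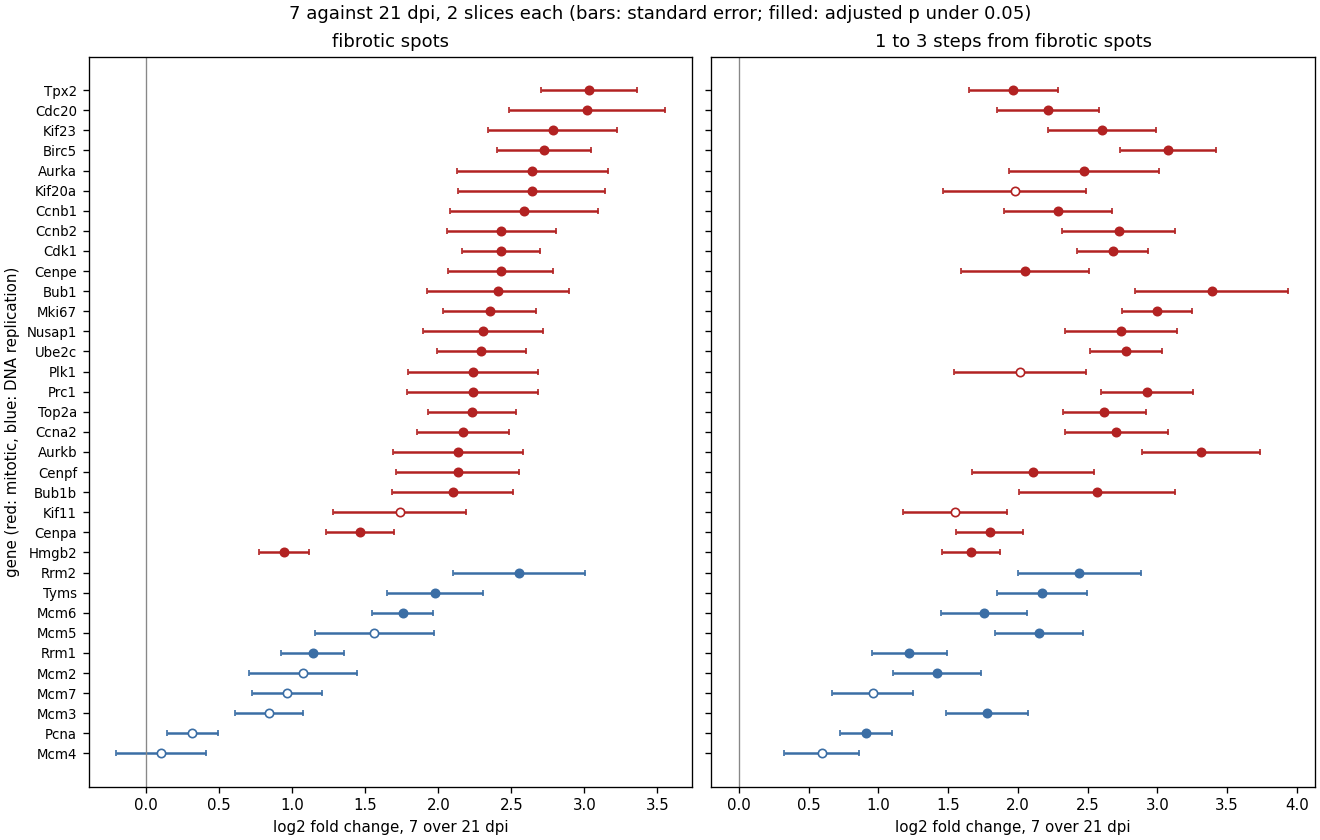
Log2 fold change of each of the 34 genes at 7 over 21 dpi in fibrotic spots (left) and in the ring (right), with standard errors over 2 slices against 2; filled points passed an adjusted p of 0.05. All points lie to the right of 0, and replication genes such as Mcm4 and Pcna sit nearest to it.

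In the ring around the fibrotic spots 29 of the 34 genes were higher at 7 than at 21 dpi, beside 3.28% of the 13305 genes tested. They were 21 of 24 mitotic and 8 of 10 replication genes. Kif11, Kif20a, Plk1, Mcm4 and Mcm7 did not pass. Both slices at 7 dpi lay above both at 21 dpi in all 34 genes, beside 24.2% of all genes. Bub1 was at 0.0725 and 0.0714 UMIs per 10000 at 7 dpi and at 0.00443 and 0.00987 at 21 dpi. It had the largest log2 fold change in the ring (3.39 ± 0.55, adjusted p = 0.0166), though its 21 dpi values rest on 2 and 3 UMIs. Mki67 was at 0.746 and 0.553 against 0.0776 and 0.0888 (3.0 ± 0.25, adjusted p = 0.00239). Pcna, at 1.5 and 1.31 against 0.714 and 0.812, passed in the ring (0.91 ± 0.18, adjusted p = 0.0355). The count was smaller without slice 1 at 7 dpi, which left 1 slice in that group. The median log2 fold change of the 34 genes was then 1.97, beside 2.20 with both slices. The count also depends on the width of the ring, since 10 were called with a ring of 1 to 2 steps.

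Elsewhere in the slice no gene of the 34 was called between 7 and 21 dpi with edgeR (0.00687% of 14554 genes tested were called higher) and 1 with DESeq2, although all 34 log2 fold changes were above 0 and 24 had an unadjusted p under 0.05. In 32 genes both 7 dpi slices lay above both 21 dpi slices, beside 21.3% of all genes; Kif11 and Mcm4 overlapped. The 2 slices at 21 dpi were far apart here. Mki67 was at 0.153 and 0.141 UMIs per 10000 at 7 dpi and at 0.0493 and 0.00919 at 21 dpi, and Top2a at 0.162 and 0.161 against 0.0549 and 0.0110. Where the higher values in slice 1 at 21 dpi lay is described with the late slices.

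Comparisons within slices, in which all regions share a capture area, asked where in the lesion the genes were expressed. At 7 dpi all 34 genes were higher in fibrotic spots than elsewhere (25.3% of 14989 genes were called higher), with log2 fold changes from 0.71 for Pcna to 2.77 for Kif20a, a kinesin of cell division. In the ring 32 were higher than elsewhere (13.1% of all genes), all but Kif11 and Plk1, with a median log2 fold change of 1.74. Between fibrotic spots and the ring no gene of the 34 was called (7.51% of all genes were called higher in fibrotic spots), and 1, Kif20a, had an unadjusted p under 0.05, with a median difference of 0.274. For Mki67 that difference was 0.10 ± 0.37 on the log2 scale, and for Hmgb2 0.02 ± 0.29. Both counts against elsewhere vary with the slices used: without slice 1 at 7 dpi 0 genes were called in the ring, and without slice 2 15 were called in fibrotic spots and 15 in the ring.

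By distance, slice 1 at 7 dpi had its highest mitotic level 1 step outside the fibrotic spots, at 9.10 UMIs per 10000 against 7.97 within them, 5.39 at 3 steps, 2.74 at 4 to 6 steps and 1.78 beyond 10. Slice 2 was highest within fibrotic spots, at 7.34, and stayed at 5.26 to 6.45 over the next 3 steps before going to 3.47, then 0.779 and 0.400. In the same slices the 6 macrophage and microglia markers ran with the mitotic genes: in fibrotic spots they stood at 97.6 and 107 UMIs per 10000, in the ring at 85.8 and 58.1, and elsewhere at 21.7 and 20.8. All 6 of these markers were higher in fibrotic spots and in the ring than elsewhere at 7 dpi, beside 25.3% and 13.1% of all genes. At 21 dpi they remained at 127 and 123 in fibrotic spots, and between 7 and 21 dpi only Lyz2 differed there, lower at 7 dpi. The marker levels in fibrotic spots were thus no lower at 21 dpi, when the mitotic genes were low. In the ring they were lower at 21 dpi than at 7 dpi, at 43.4 and 34.2, and so they were elsewhere, at 12.3 and 6.07. The part of macrophages and microglia in the change of the mitotic genes was not tested.

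**Figure D5:**
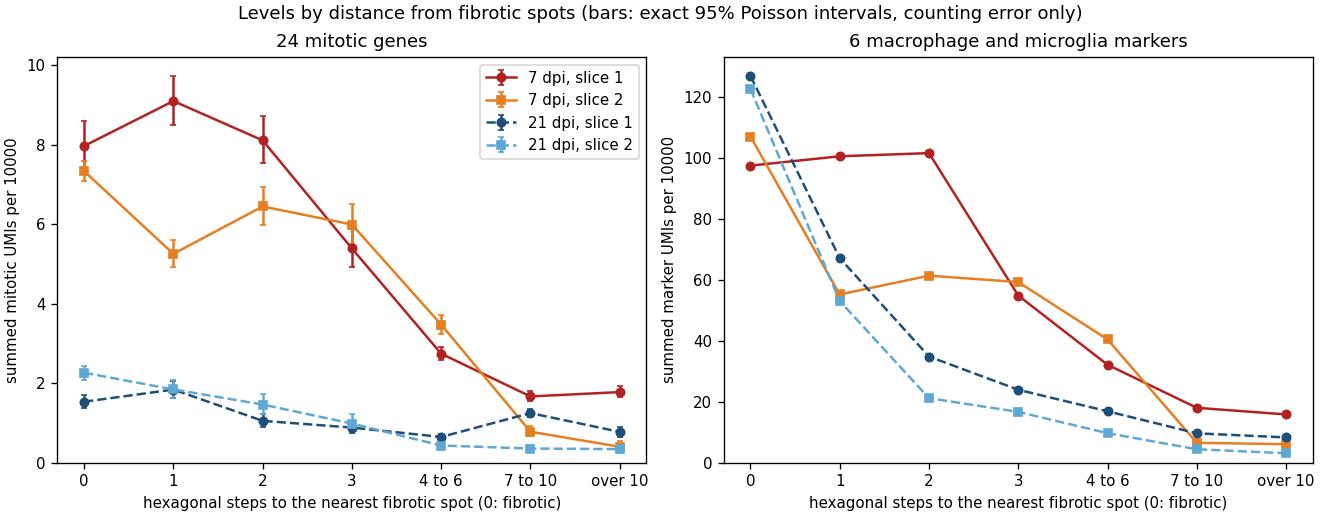
Summed mitotic UMIs (left, exact 95% Poisson intervals, counting error only) and summed macrophage and microglia marker UMIs (right) per 10000 UMIs, by hexagonal steps from the nearest fibrotic spot, in WT slices at 7 and 21 dpi. The markers are as high at 21 dpi as at 7 dpi in fibrotic spots (0 steps) and lower at 2 and 3 steps. In fibrotic spots the mitotic level is 7.97 and 7.34 at 7 dpi and 1.53 and 2.26 at 21 dpi.

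Other cell types also differed with region and time. Neuron markers were lower in fibrotic spots (8.19 to 12.0 UMIs per 10000 at 7 and 21 dpi in WT mice) than elsewhere (30.3 to 64.6), with all 5 called at both times. Lymphocyte and plasma cell markers were near 0 at 7 dpi (0.0472 and 0.0159 in fibrotic spots, with 3 and 2 of the 5 genes at 0) and reached 1.77 and 2.48 at 21 dpi. Astrocyte markers stood at 11.9 and 12.7 in fibrotic spots at 7 dpi and at 21.5 and 23.7 at 21 dpi, and 3 of the 5 (Aqp4, Gfap and Slc1a3) were lower at 7 dpi. Endothelial markers at 7 dpi stood at 2.69 and 2.65 in fibrotic spots, 2.10 and 1.48 in the ring and 1.46 and 1.14 elsewhere. They were thus also highest in the lesion and lowest elsewhere, over a narrower range than the macrophage and microglia markers. Of the 5, 4 were called higher in fibrotic spots than elsewhere, beside 25.3% of all genes. None of the 5 was called between 7 and 21 dpi. Oligodendrocyte precursor markers overlapped between times in fibrotic spots (2.92 and 2.92 at 7 dpi, 1.76 and 3.73 at 21 dpi). Of the 5, 1, Cspg4, which pericytes also express, was higher at 7 dpi there and in the ring, beside 1.6% and 3.28% of all genes. Counts of markers called lower are descriptions, given without the share of all genes called lower. The part of these cell types in the changes of the cell cycle genes was not tested.

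Shares of spots at equal depth ran the same way. With every spot thinned to 1000 UMIs, 45.5% and 46.9% of fibrotic spots at 7 dpi held a mitotic UMI, against 11.2% and 22.7% at 21 dpi and 9.33% and 9.12% in deleter mice. Elsewhere 15.7% and 15.5% of spots held one at 7 dpi, compared with 5.90% and 3.47% at 21 dpi. The slice at rest stood at 5.03% over all spots and that at 2 dpi at 36.7%, after 375 of its spots were left out as too shallow. Before thinning these whole-slice shares were 47.3% at rest and 62.5% at 2 dpi.

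At 21 dpi the difference between fibrotic tissue and the rest of the slice was smaller in number of genes. Higher in fibrotic spots than elsewhere were 18 of the 34 genes (28.5% of all genes), 13 of 24 mitotic and 5 of 10 replication genes, with a median log2 fold change of 1.13. The mitotic genes called were led by Prc1, which bundles midzone microtubules, and Nusap1. Each of these had 12 UMIs elsewhere in slice 1 and only 1 in slice 2. In slice 1 Prc1 was at 0.0179 UMIs per 10000 in fibrotic spots and 0.0112 elsewhere, and Nusap1 at 0.0313 and 0.0112. The replication genes were led by Mcm3, at 2.04 ± 0.41, and included Pcna, at 0.64 ± 0.12 (adjusted p = 0.000584). In the ring none was called (6.75% of all genes were called higher), 13 had an unadjusted p under 0.05 and DESeq2 called 2. The 2 slices differed: mitotic genes in fibrotic spots were 1.66 times the level elsewhere in slice 1 and 5.95 times in slice 2. Without slice 1, 21 genes were called in fibrotic spots and 9 in the ring, and without slice 2 only 4 and 0.

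The step from fibrotic spots to elsewhere was not shown to be larger at 7 than at 21 dpi. None of the 34 genes passed the test of that difference, and 0.0667% of all genes were called with a larger step at 7 dpi. Of the 34 genes, 29 were above 0 and 8 had an unadjusted p under 0.05. DESeq2 called 0 of the 19 genes to which it gave an adjusted p. The median was 0.743 on the log2 scale, -0.0641 without slice 1 at 21 dpi and 1.29 without slice 2. For the ring none passed either, and 0% of all genes were called with a larger step at 7 dpi. All 34 were above 0 and 9 had an unadjusted p under 0.05. 

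Few spots held much of the mitotic signal elsewhere in slice 1 at 21 dpi. Spots with at least 3 UMIs and at least 3 UMIs per 10000 of Sox11, Dlx1, Dlx2, Dlx5 and Dcx, genes of newborn neurons, were set apart after the data were seen, and no cell type is assigned to them. Elsewhere in slice 1 at 21 dpi there were 19 such spots, 2.31% of those spots, which held 38.6% of the mitotic UMIs at 11 UMIs per 10000 (9.90 to 12.1), against 0.587 in the other spots. The slice at rest had 4 such spots at 11.8 (9.44 to 14.7) against 0.493, and slice 2 of the deleter mice 15 at 7.94 against 0.508. In the ring of slice 2 at 21 dpi 6 such spots stood at 10.6 against 1.20. The same did not hold everywhere: 5 such spots elsewhere in deleter slice 1 stood at 0.872, and 1 in slice 2 at 7 dpi held no mitotic UMI. With these spots left out, 8 genes in place of 0 were called higher in the ring than elsewhere at 21 dpi. In fibrotic spots 21 were called in place of 18. The number between 7 and 21 dpi elsewhere stayed at 0. Leaving out spots rich in mitotic UMIs lowers the level elsewhere in slice 1. The larger counts thus follow in part from that choice and are no test, and the share of all genes called is not given for them.

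Deleter and WT slices at 21 dpi were compared in fibrotic spots. Of the 34 genes 22 had enough UMIs to be tested and none was called (0.00772% of all genes were called in either direction); 4 were above 0, 2 had an unadjusted p under 0.05 and DESeq2 called 0. Mitotic genes stood at 1.38 ± 0.21 UMIs per 10000 (SD, n = 2) in deleter mice and 1.90 ± 0.52 in WT mice, and replication genes at 1.98 ± 0.16 and 2.15 ± 0.01. The lowest log2 fold changes were those of Ube2c (-1.28 ± 0.61) and Top2a (-1.20 ± 0.44). Replication genes lay between -0.46 for Mcm3 and 0.28 for Mcm7. Within the deleter slices 13 of the 34 genes were higher in fibrotic spots than elsewhere (29.2% of all genes), 6 mitotic and 7 replication genes, with Mcm3 (2.40 ± 0.44), Cdk1 (2.22 ± 0.40) and Mcm6 (1.80 ± 0.32) among them. The difference of this step between deleter and WT mice passed for none, and 15 of the 34 genes were above 0. Of all genes, 0% were called with a larger step in deleter mice.

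Other genes of the cycle, on lists made by function, were set beside the 34; over all genes tested 1.6% were called higher at 7 dpi in fibrotic spots and 3.28% in the ring. Of 41 further mitosis genes tested in fibrotic spots 21 were higher at 7 than at 21 dpi and none lower, led by Cdca3 (2.97 ± 0.47), Gtse1, Ncapg and Cdca8. In the ring 23 of 42 were higher, led by Cdca2 (3.41 ± 0.60). Of further replication genes 3 of 28 were higher in fibrotic spots (Tk1, the salvage kinase for thymidine, at 2.47 ± 0.37, Uhrf1 and Dut) and 8 of 30 in the ring, with Tk1 at 3.97 ± 0.42 and Cdc6, which loads the helicase, at 3.53 ± 0.63. G1 cyclins, their kinases and E2F factors had 1 of 16 genes higher in fibrotic spots, Ccnd1 (0.99 ± 0.20), and 6 of 17 in the ring, led by Cdk6 (2.27 ± 0.33), E2f2, Cks1b and Ccne2. The proliferation list that the study used, taken from earlier publications, had 10 of 20 genes higher in fibrotic spots and 9 of 22 in the ring. It shares genes such as Mki67 and Bub1 with the 34, so it is not independent of them.

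Brakes on the cycle did not follow one direction. In fibrotic spots Cdkn1a (p21) was higher at 7 than at 21 dpi (1.70 ± 0.19, adjusted p = 0.00175) and Cdkn1c (p57) lower (-1.47 ± 0.21, adjusted p = 0.00521), and the other 16 of 18 brakes were not called. In the ring Cdkn1a and Cdkn2c were higher at 7 dpi and Btg2 lower. Within slices, 11 of 18 brakes were higher in fibrotic spots than elsewhere at 7 dpi, beside 25.3% of all genes, and 12 of 18 at 21 dpi, beside 28.5%, with Cdkn2a (p16 and p19ARF) at 2.80 ± 0.76 and 4.57 ± 0.78 and Cdkn2b at 2.67 ± 0.47 and 2.69 ± 0.44. Cdkn2d was lower in fibrotic spots at both times (-0.78 ± 0.15 and -1.19 ± 0.14). In fibrotic spots against the ring at 7 dpi, where none of the 34 genes and 7.51% of all genes were called higher, 5 brakes were higher: Cdkn2b (1.82 ± 0.47), Cdkn1c, Cdkn1a, Gadd45b and Btg1.

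The genes outside the 34 whose levels over the 24 sums of slice and region were most like the summed mitotic genes were Eprs (Pearson r = 0.933), Ckap2 (r = 0.929) and Pbk (r = 0.924), of 12517 genes with at least 500 UMIs. Without the fibrotic sum at rest, which holds 4 mitotic UMIs in 3 spots, Ckap2 (r = 0.960) and Pbk (r = 0.952) were above Eprs (r = 0.934), as were Cdca8, Pclaf and Ckap2l. Ckap2 is a spindle protein and Pbk a mitotic kinase, and Eprs is a tRNA synthetase. The 24 sums share slices and depth, so these are descriptions without a test.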

How the data were processed

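Visium libraries of 8 slices on 4 capture areas were used, 1 mouse per slice, grouped by the labels. The authors deposited filtered matrices of whole-number UMI counts per gene and spot, made with Space Ranger 2.0.0 on mm10 per the labels and the study's methods, and nothing was normalized before deposit. Because UMIs are counted, PCR copies are collapsed; intervals (exact Poisson for levels and ratios, exact binomial for shares, 95%) cover counting error only. Slices were taken as the 2 connected pieces of tissue on each area, and 1293 barcodes occur on all 4 areas since the array layout is shared. Spots were not filtered on depth, except that 4 spots without a UMI in the first WT slice at 21 dpi lie in no region, and no doublet caller was run, because spots are not cells.

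Levels are UMIs of a gene per 10000 UMIs of a slice and region. Tests used counts summed per slice and region, never spots, in edgeR 4.0.16 (R 4.3.3; TMM, filterByExpr, quasi-likelihood F test, Benjamini-Hochberg over all genes tested, adjusted p under 0.05), with SE as the size of the log2 fold change over the square root of F. Comparisons of times and genotypes used 2 slices against 2. Region comparisons fitted 3 regions in 6 slices with the slice as a block and a region-by-group term. Rest and 2 dpi had 1 slice each and were not tested. Counts were simulated with 200 genes changed 4-fold. Of these, 87.5% were recovered in fibrotic spots between 7 and 21 dpi and 89.0% between fibrotic spots and elsewhere. For the difference of that step between times 54.0% were recovered. False calls made up 6.91%, 3.78% and 8.47% of the calls in the same order. The simulation gave all genes the same dispersion and changed only genes above a minimum count. Recovery of smaller changes was not measured. Alternatives were DESeq2 1.42.0, no filter, no TMM, other Col1a1 minima (3, 10) and ring widths (2, 5 steps), spots of at least 1000 UMIs only, sums without Hmgb2 or Pcna, and each slice left out.

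The members, lists and tests were chosen with earlier results of these data known. The fibrotic to ring comparison, the ring and deleter steps, the RNA-poor core at 2 dpi and the spots with newborn neuron genes were added after the data were seen. Every-slice values are given for the 8 mitotic and 5 replication genes with most UMIs and for the largest changes; other lists are given by counts and up to 4 genes with the largest change, and Pearson correlations name the 3 most alike genes. Nothing in the labels says that the slices of a group were handled apart beyond being separate mice, so p-values measure the spread between these slices.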

Additional observations from a re-analysis of the deposited data

How the results depend on the processing

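For the 8 mitotic and 5 replication genes with most UMIs no call changed direction under the alternatives. No 7 over 21 dpi sum did so either. The direction of calls of the other genes was not compared. The median difference of the fibrotic step between times went from 0.743 to -0.0641 on the log2 scale without slice 1 at 21 dpi. Between 7 and 21 dpi in fibrotic spots 27 genes were called, 19 to 32 under other settings (19 with DESeq2) and 11 to 29 with a slice left out. In the ring 29 were called, 19 with a Col1a1 minimum of 10, 10 with a ring of 1 to 2 steps and 3 to 32 with a slice left out. Elsewhere 0 were called, 1 with DESeq2, 9 with no filter on low counts, 7 with the deleter slices added at 21 dpi and 0 to 2 with a slice left out. Between fibrotic spots and elsewhere at 7 dpi 34 were called, 32 to 34 under other settings and 15 to 34 with a slice left out; at 21 dpi 18 were called, 11 with a Col1a1 minimum of 10 and 4 to 21 with a slice left out. Between ring and elsewhere at 7 dpi 32 were called, 29 to 34 under other settings and 0 to 33 with a slice left out; at 21 dpi 0 were called, 2 with DESeq2, 7 with no filter, 4 with a Col1a1 minimum of 10, 3 with a ring of 1 to 2 steps, 8 without the spots of newborn neuron genes and 0 to 9 with a slice left out. The difference of the fibrotic step between times gave 0 throughout, though DESeq2 gave an adjusted p to only 19 of the 34 genes. The deleter comparison gave 0, or 1 with no filter. Of the 7 over 21 dpi sums, the mitotic fold in fibrotic spots was 4.03 and 5.17 without Hmgb2, and the replication folds were 1.94 in fibrotic spots and 1.44 elsewhere, and 2.53 and 1.64 without Pcna. The share of fibrotic spots with a mitotic UMI was 46.2% at 7 dpi as a mean of slices, 28.8% thinned to 500 UMIs, 68.9% at 2000 UMIs and 42.2% without Hmgb2, and 16.9% at 21 dpi, 9.54% at 500 UMIs, 27.3% at 2000 UMIs and 11.1% without Hmgb2. The causes of these changes were not tested. Leaving out a slice leaves a group with 1, which is then assumed to vary like the others. No paired analysis was possible because the slice numbers only name mice and do not match mice across groups; regions of the same slice were compared with the slice as a block. Depth limits most the 26 fibrotic spots at 2 dpi, the 3 at rest and the 12 genes too low to test between deleter and WT mice.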
